A study of Mus musculus with 2 samples.

Results

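In mouse heart at embryonic day 12.5, 9 muscle microRNA genes were examined among the 1973 microRNA genes counted. They were chosen by symbol: Mir208b, Mir208a and Mir499, which lie in introns of myosin heavy chain genes, and Mir206, Mir133b, Mir1a-1, Mir1b, Mir133a-1 and Mir133a-2 of the mir-1, mir-133 and mir-206 loci. The data were 2 small RNA libraries, each from 1 biological replicate of whole hearts from healthy B6NCrl embryos, with male and female tissue pooled. The labels give no treatment, no mutation and no second group, and they do not say how many embryos a pool held. The questions were therefore how much of each gene the hearts held, in what order the levels stood and how closely the 2 libraries matched.

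A microRNA gene is transcribed as a longer RNA, from which a hairpin and then a short mature product are cut. The product guides Argonaute proteins to messenger RNAs, largely through its seed, bases 2 to 8. Mir208a, Mir208b and Mir499 are made from the transcripts of myosin genes, the motor proteins of muscle, while the mir-1, mir-133 and mir-206 genes form bicistronic loci of heart and skeletal muscle.

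The mature sequences of the 5 genes with the most counts among the 9 are shown first, because they decide which reads can be told apart. They are written 5′ to 3′ from RefSeq on GRCm38.p6, with the seed in capitals. The arm shown is the one best known as the product.
miR-208b-3p: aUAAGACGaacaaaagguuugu
miR-208a-3p: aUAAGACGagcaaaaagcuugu
miR-499-5p: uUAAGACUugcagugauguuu
miR-206-3p: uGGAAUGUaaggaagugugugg
miR-133b-3p: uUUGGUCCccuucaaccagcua

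miR-208a-3p and miR-208b-3p shared the seed UAAGACG and their first 9 bases. Counted from the 5′ end, with the miR-208a base first, they differed by G10A, A16G and C18U, and 19 of 22 bases were the same. miR-499-5p shared bases 2 to 7 with both but not base 8 (G8U). Over the 21 bases compared without gaps, it matched miR-208a-3p at 12 and miR-208b-3p at 10. The seeds were sought among 1679 mature RefSeq names. This set is not complete, and the part of RefSeq that holds Mir1b and Mir133a-1 was left out of it. Among the names searched, bases 2 to 7 of this group were found in these 3 products and in no other. The seed of miR-206-3p, known to be that of miR-1 as well, was also found in miR-6349 and miR-6382. The seed of miR-133b-3p, known to be that of miR-133a as well, was found in no other name searched. Those names held no product of Mir133a-1 or Mir133a-2, and of Mir1a-1 only the 5′ arm. The search could therefore not find the miR-1 and miR-133a products with these seeds. Whether products outside the names searched have any of these seeds was not tested.

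The hairpins of the 3 myosin-intron genes follow, with the annotated arms in capitals, because the counts are per gene and hold both arms together.
Mir208b hairpin: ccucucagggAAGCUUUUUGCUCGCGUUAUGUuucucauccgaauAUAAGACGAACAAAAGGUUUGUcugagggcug
Mir208a hairpin: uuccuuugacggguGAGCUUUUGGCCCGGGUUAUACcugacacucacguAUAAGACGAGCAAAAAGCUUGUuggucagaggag
Mir499 hairpin: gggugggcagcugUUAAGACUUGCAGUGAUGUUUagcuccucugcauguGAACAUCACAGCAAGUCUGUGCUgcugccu

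The 5′ arms of Mir208a and Mir208b also had a common seed (AGCUUUU), with 6 substitutions over 22 bases. The longest run that the Mir208b hairpin shared with any other of the 2202 microRNA hairpins of GENCODE M21 was 14 bases, with Mir208a and in reverse complement. That of Mir499 was 13 bases. No 22-base window of these 3 hairpins occurred in a transcript of another locus on either strand, so reads of that length are assigned to them without a second annotated hairpin.

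Each of the myosin-intron genes lay in a short intron of its host. Mir208b (ENSMUSG00000077928.1, chr14:54975700-54975776, minus strand, GRCm38) lies in intron 31 of the 41-exon transcript Myh7-204, an intron of 461 bases. Myh7 encodes beta myosin heavy chain, the slow form that predominates in the ventricles of the mouse embryo. Mir208a (ENSMUSG00000065432.1, chr14:54949060-54949142, minus strand) lies in intron 29 of the 39 exons of Myh6-201, an intron of 542 bases. Myh6 encodes alpha myosin heavy chain, the fast form that predominates in the adult mouse heart. Mir499 (ENSMUSG00000076312.1, chr2:155622880-155622958, plus strand) lies in intron 19 of the 42 exons of Myh7b-201, an intron of 481 bases. Myh7b encodes a further myosin heavy chain of striated muscle.

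Each hairpin had the strand of its host and began 102, 195 and 158 bases after the upstream exon of Myh7, Myh6 and Myh7b. Mir208a and Mir208b are 26.6 kb apart. The start of Mir208b was 18.9 kb from that of its host transcript, the start of Mir208a 17.5 kb and the start of Mir499 11.7 kb.

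**Figure D1:**
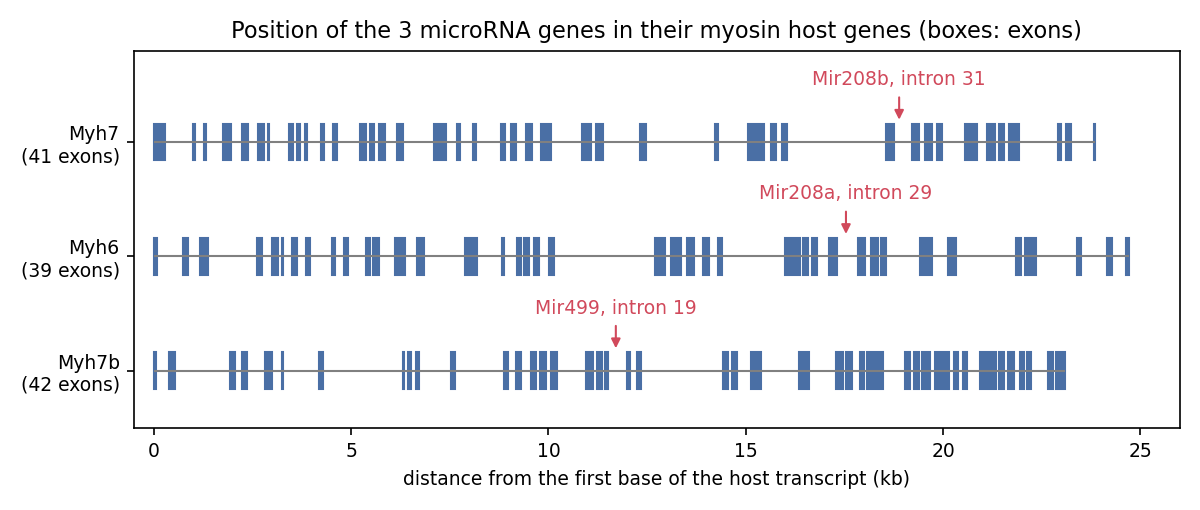
Map of the Myh7, Myh6 and Myh7b transcripts with distance from the first transcribed base in kb on the x axis, exons as boxes and the microRNA gene marked by an arrow. Mir208b and Mir208a lie in introns 31 and 29 in the later part of their hosts, and Mir499 in intron 19 near the middle of its host.

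The 3 myosin-intron genes carried nearly all counts of the 9. Levels are CPM, counts scaled to the sum of all counts on the strand of a microRNA gene. These sums were 4478599 in replicate 1 and 5279908 in replicate 2. The 3 genes together held 286443 and 326955 counts in replicates 1 and 2, or 6.40% and 6.19% of all such counts. The 6 other genes together held 181 and 210 counts, 40.4 and 39.8 CPM. Within a library the first sum was 1583 and 1557 times the second (mean 1570 ± 18.1, SD, n = 2). The second sum leaves out the reads opposite to Mir1b, described below, and with them the mean ratio was 1101. Reads that fit several places are in neither sum. No 22-base window of the 3 myosin-intron hairpins occurred in a transcript of another locus on either strand. Windows of Mir1a-1, Mir1b, Mir133a-1 and Mir133a-2 did. Such reads can therefore be missing from the second sum in particular, and the ratio holds for reads with 1 place only. By how much they would change it was not tested. In whole hearts, fewer cells of a type and less RNA per cell cannot be told apart.

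Mir208b, whose product is a cardiac and slow muscle microRNA, had 232198 counts in replicate 1 and 263941 in replicate 2. Its level was 51846 and 49990 CPM (50918 ± 1313, SD, n = 2), and it held rank 6 of all genes in both libraries. By mean CPM its neighbours were the endothelial Mir126a above, at 67897 ± 1234 CPM, and Mir30e below, at 32001 ± 2878 CPM (SD, n = 2 each). The ranges of the 2 libraries did not overlap with those of either neighbour.

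Mir208a, a heart-specific microRNA in the mouse, had 44777 and 51597 counts, or 9998 and 9772 CPM (9885 ± 160, SD, n = 2). It ranked 20 in replicate 1 and 21 in replicate 2. Mir30d, next above it by the mean at 10044 ± 649 CPM (SD, n = 2), stood at 9585 CPM in replicate 1, below Mir208a, so their order was not fixed. Mir22, next below, was lower in both libraries, at 9283 and 8569 CPM.

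Mir499 had 9468 and 11417 counts, or 2114 and 2162 CPM (2138 ± 34.1, SD, n = 2), at ranks 59 and 61. Its neighbours Mir188, at 2139 ± 45.5 CPM, and Mir361, at 2098 ± 218 CPM (SD, n = 2 each), could not be ordered against it. Product lengths of these genes are alike, 21 to 23 bases for the annotated arms, so a count is taken as 1 product whatever the hairpin length.

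The order Mir208b, Mir208a, Mir499 was the same in both libraries, and the ranges of the 2 libraries did not overlap between any 2 of them. Mir208b had 5.19 times the counts of Mir208a in replicate 1 (95% counting interval 5.13 to 5.24) and 5.12 times in replicate 2 (5.07 to 5.16). Mir208b had 24.5 and 23.1 times the counts of Mir499. Mir208a had 4.73 times the counts of Mir499 in replicate 1 (4.63 to 4.84) and 4.52 times in replicate 2 (4.43 to 4.61). Of the counts of the 9 genes, Mir208b made up 81.0% and 80.7%, Mir208a 15.6% and 15.8%, and Mir499 3.30% and 3.49%. The design has 1 group of 2, so no test between genes over samples was made. Whether products of different sequence were captured equally was not tested.

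No read of the 3 myosin-intron genes lay on the opposite strand. The counts there were 0 of 286443 in replicate 1 and 0 of 326955 in replicate 2, which allows a share of up to 0.00105% and 0.000918%. These limits, like the counting intervals, cover counting error only, since no molecular identifiers are stated for the reads.

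**Figure D2:**
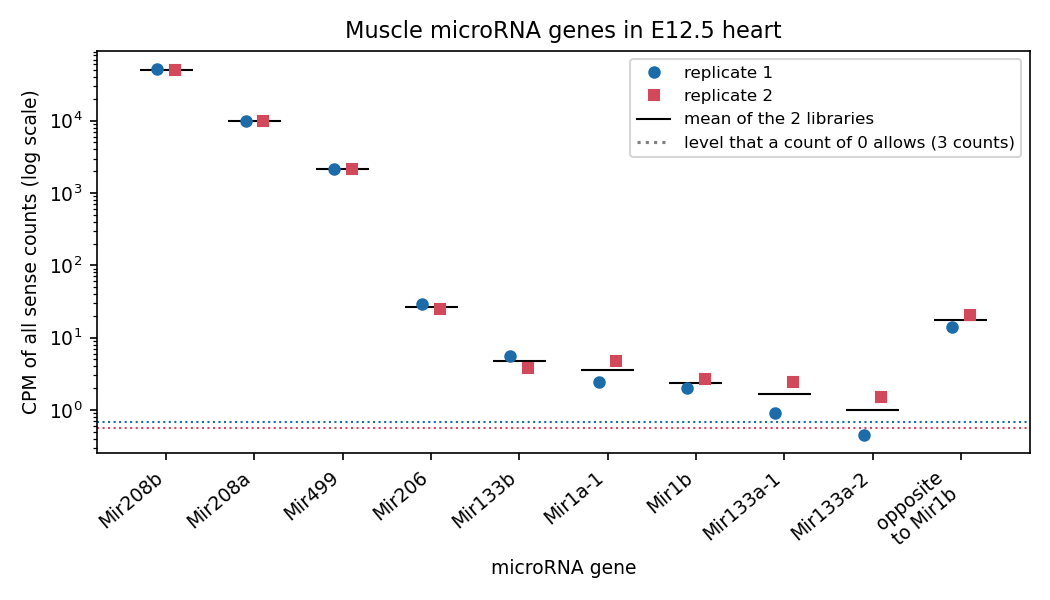
CPM of each of the 9 genes, and of the reads opposite to Mir1b, in replicate 1 (circles) and replicate 2 (squares) on a log axis, with the mean as a bar and the level that 3 counts give as dotted lines. The 3 myosin-intron genes lie between 2114 and 51846 CPM, and the 6 others at 29.0 CPM or below.

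Mir206, which with Mir133b forms a pair known for skeletal muscle, had the highest level of the 6 other genes in both libraries. Mir206 (ENSMUSG00000065559.1) lies at chr1:20679010-20679082 and Mir133b (ENSMUSG00000065480.1) 3.69 kb further, at chr1:20682769-20682887, both on the plus strand within the lincRNA gene Gm28653. Mir206 had 130 counts in each library, 29.0 and 24.6 CPM (26.8 ± 3.12, SD, n = 2), at ranks 245 and 251. Its neighbours by mean CPM, Mir34b at 27.0 ± 4.40 and Mir1968 at 26.3 ± 5.38 CPM (SD, n = 2 each), could not be ordered against it.

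Mir133b had 25 and 20 counts, 5.58 and 3.79 CPM (4.69 ± 1.27, SD, n = 2). Mir206 had 5.20 times the counts of Mir133b in replicate 1 (95% counting interval 3.37 to 8.33) and 6.50 times in replicate 2 (4.04 to 11.0). The mean of these ratios was 5.85. Per base of the hairpin, a scale chosen after seeing the data, it was 9.54, since the Mir133b hairpin is longer. With a count taken as 1 product whatever the hairpin length, the value per base is not a ratio of products. Mir499, the lowest of the myosin-intron genes, had 72.8 and 87.8 times the counts of Mir206.

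The miR-206-3p arm occupies bases 46 to 67 of its hairpin, and the longest run that this hairpin shared with another was 13 bases. The miR-133b-3p arm occupies bases 66 to 87 of its own, of which bases 66 to 86 were identical in the hairpins of Mir133a-1 and Mir133a-2. This run of 21 bases stops 1 base short of the end of the arm. A read of miR-133b-3p without its last base therefore fits other places, and such reads are in no gene's count. The ratio of Mir206 to Mir133b rests on the reads that were left.
Mir133b hairpin: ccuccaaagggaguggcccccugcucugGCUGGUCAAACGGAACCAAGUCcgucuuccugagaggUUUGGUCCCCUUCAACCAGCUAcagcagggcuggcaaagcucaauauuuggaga
Its annotated arms are in capitals, and it is shown because the shared run covers all but the last base of the 3′ arm.

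The 4 genes of the mir-1 and mir-133a loci had 2 to 25 counts in a library. Mir1a-1 (ENSMUSG00000070144.1, chr2:180389048-180389124) had 11 and 25 counts, 2.46 and 4.73 CPM. Mir133a-2 (ENSMUSG00000065460.1, chr2:180398379-180398482), 9.25 kb from it on the same plus strand, had 2 and 8 counts, 0.447 and 1.52 CPM. The products of both loci are known as the main microRNAs of adult heart and skeletal muscle. In replicate 1, Mir133a-2 lay below the level that 3 counts give, 0.670 CPM.

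On chromosome 18, Mir133a-1 (ENSMUSG00000065399.1 in the tables) had 4 and 13 counts, 0.893 and 2.46 CPM. GENCODE M21 holds a later version of this gene, at chr18:10782909-10782976 on the minus strand, so the region counted may have differed. Mir1b (ENSMUSG00000080662.1, chr18:10785446-10785567, plus strand) had 9 and 14 counts, 2.01 and 2.65 CPM. From Mir133b downwards the ranges of the 2 libraries overlapped between neighbours in level. Mir133b lay above Mir1a-1 in replicate 1 and below it in replicate 2. Mir1a-1, Mir1b, Mir133a-1 and Mir133a-2 stood in this order in both libraries, but on counts too small to fix it.

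Reads opposite to Mir1b outnumbered those on its own strand. There were 63 in replicate 1 and 108 in replicate 2, 14.1 and 20.5 CPM (17.3 ± 4.52, SD, n = 2). They made up 87.5% of the reads there in replicate 1 (95% exact binomial interval 77.6% to 94.1%) and 88.5% in replicate 2 (81.5% to 93.6%). GENCODE M21 annotates Mir1a-2 on that strand (ENSMUSG00000106348.1, chr18:10785481-10785552), 2504 bases from Mir133a-1, and both lie within Mir133a-1hg. The opposite-strand reads had 5.73 and 4.32 times the counts of Mir1a-1. At the 5 other genes of the mir-1, mir-133 and mir-206 loci the opposite strand held 1 read in all, at Mir1a-1 in replicate 2.

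The low counts of the mir-1 and mir-133a genes stand beside sequence they share. Mir1a-1 has bases 45 to 72 of its 77-base hairpin, a run of 28, in common with Mir1a-2. Mir1b lies opposite to Mir1a-2 and holds this run in reverse complement. Of the 56 windows of 22 bases of Mir1a-1, 7 occurred there. Mir133a-1 and Mir133a-2 share a run of 31 bases, at bases 38 to 68 of the 68-base hairpin and 54 to 84 of the 104-base hairpin, which held 13 of 47 and 13 of 83 windows. These runs lie in the 3′ part, from which miR-1a-3p and miR-133a-3p, the best known products, are cut. A read within such a run fits at least 2 places and is counted to no gene.

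The 5′ arm of Mir1a-1, bases 10 to 32 of its hairpin, lies outside the shared run, and it is shown with that of Mir206, since the 2 were alike in sequence.
miR-1a-1-5p: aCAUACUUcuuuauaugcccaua
miR-206-5p: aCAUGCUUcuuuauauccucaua
With the miR-206-5p base first, they differed by G5A, C17G and U19C, and each was found in the transcript of its own gene alone. The tables do not say from which arm a counted read came.

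Reads that fit several places numbered 2503492 in replicate 1 and 2677232 in replicate 2, 27.1% and 25.3% of all reads. They were 13831 and 12749 times the counts of the 6 mir-1, mir-133 and mir-206 genes, and 8.74 and 8.19 times those of the myosin-intron genes. How many of them came from miR-1 or miR-133a products was not tested. The levels given for Mir1a-1, Mir1b, Mir133a-1 and Mir133a-2 are therefore levels of reads with 1 place, not of the mature products. Mir133c, a further gene of the family name, had 0 counts in both libraries, which allows up to 0.670 and 0.568 CPM.

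**Figure D3:**
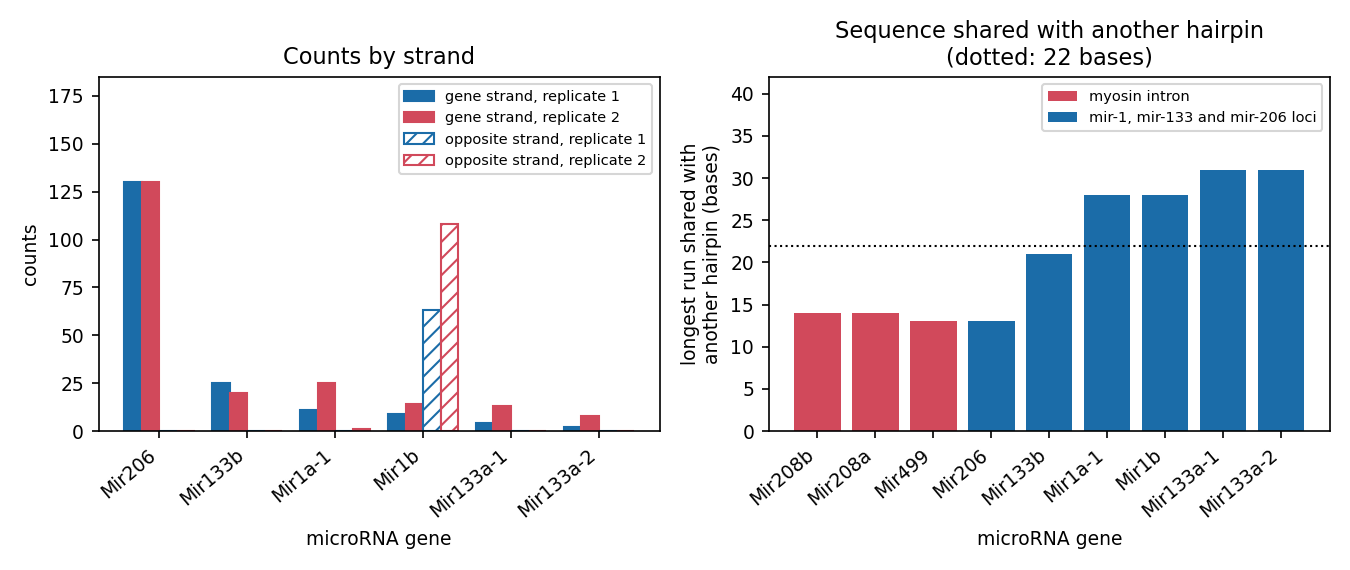
Left, counts at the 6 mir-1, mir-133 and mir-206 genes on the gene's strand (filled) and the opposite strand (hatched) in each library. Right, the longest run of bases that each hairpin shares with a microRNA hairpin of another locus, with 22 bases dotted. Opposite-strand counts of 63 and 108 stand at Mir1b, and only Mir1a-1, Mir1b, Mir133a-1 and Mir133a-2 of the 9 share a run of 22 bases or more.

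Set against all genes, the 9 covered most of the range of levels. All 9 had at least 10 counts over both libraries, as had 444 of 1973 genes, and 4 of the 9 reached 10 CPM in both, as had 284 of 1973. The median of the mean CPM was 4.69 for the 9 and 2.53 for all genes with a count.

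**Figure D4:**
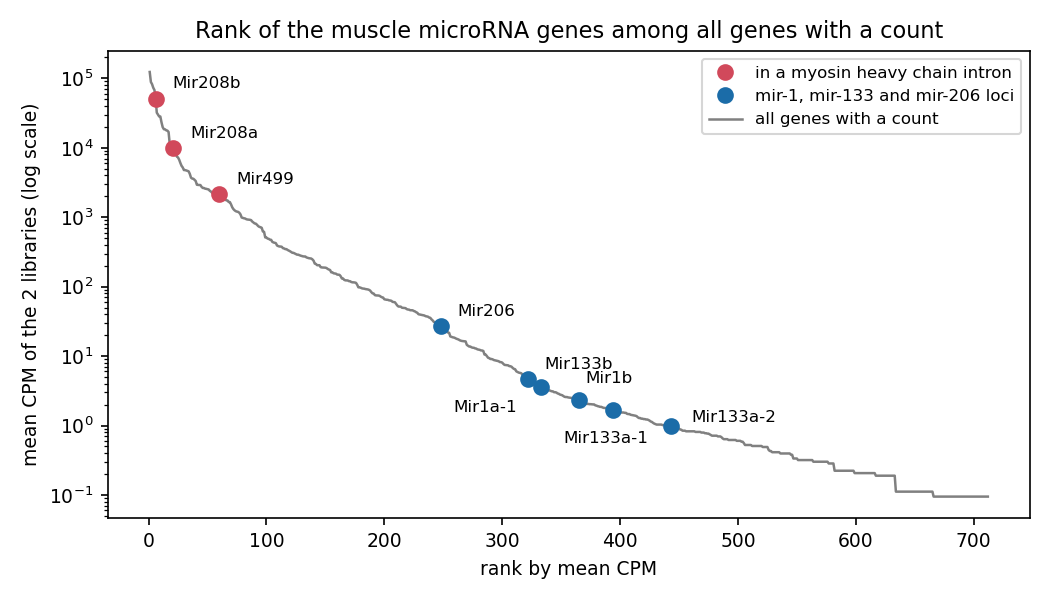
Mean CPM of the 2 libraries on a log axis against rank, for all genes with a count (line) and the 9 muscle microRNA genes (points). The myosin-intron genes hold ranks 6, 21 and 60, Mir206 rank 248, and the others ranks 322 to 443.

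The 2 libraries gave nearly the same levels of the myosin-intron genes, and the mir-1 and mir-133a genes were counted too thinly to compare one by one. The ratio of replicate 2 to replicate 1 was 0.964 for Mir208b (95% counting interval 0.959 to 0.970), 0.977 for Mir208a (0.965 to 0.990) and 1.02 for Mir499 (0.995 to 1.05). For Mir206 it was 0.848 (0.660 to 1.09) and for Mir133b 0.679 (0.357 to 1.27).

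Mir1a-1, Mir1b, Mir133a-1 and Mir133a-2 each had more CPM in replicate 2, at ratios of 1.93 (0.915 to 4.34), 1.32 (0.532 to 3.46), 2.76 (0.852 to 11.6) and 3.39 (0.677 to 32.8). Each of these 4 intervals included 1. The 4 together, a sum chosen after their values were seen, had 60 counts in replicate 2 and 26 in replicate 1, a ratio of 1.96 (1.22 to 3.23). The reads opposite to Mir1b had a ratio of 1.45 (1.06 to 2.02). Mir206 and Mir133b together had 150 counts in replicate 2 and 155 in replicate 1, a ratio of 0.821 (0.651 to 1.03).

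An exact binomial test of the 2 counts was made for every gene with a count, with Benjamini-Hochberg adjustment over 712 genes. It compares these 2 libraries by counting error alone, not conditions. With an adjusted p of 0.05 and a 2-fold ratio, 0 of the 9 genes passed, against 0.421% of all genes (3 of 712). Without a minimum ratio 2 of the 9 passed, against 16.7% of all genes (119 of 712). These were Mir208b (adjusted p = 4.3e-36, exact binomial test), at its ratio of 0.964, and Mir208a (adjusted p = 0.00315, exact binomial test), at its ratio of 0.977. At an unadjusted p under 0.05 there were the same 2 of the 9, against 164 of all 712 genes.

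The median absolute log2 ratio was 0.40 for the 9 genes and 0.03 for the 3 myosin-intron genes, against 0.20 for the 444 genes with at least 10 counts in total.

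**Figure D5:**
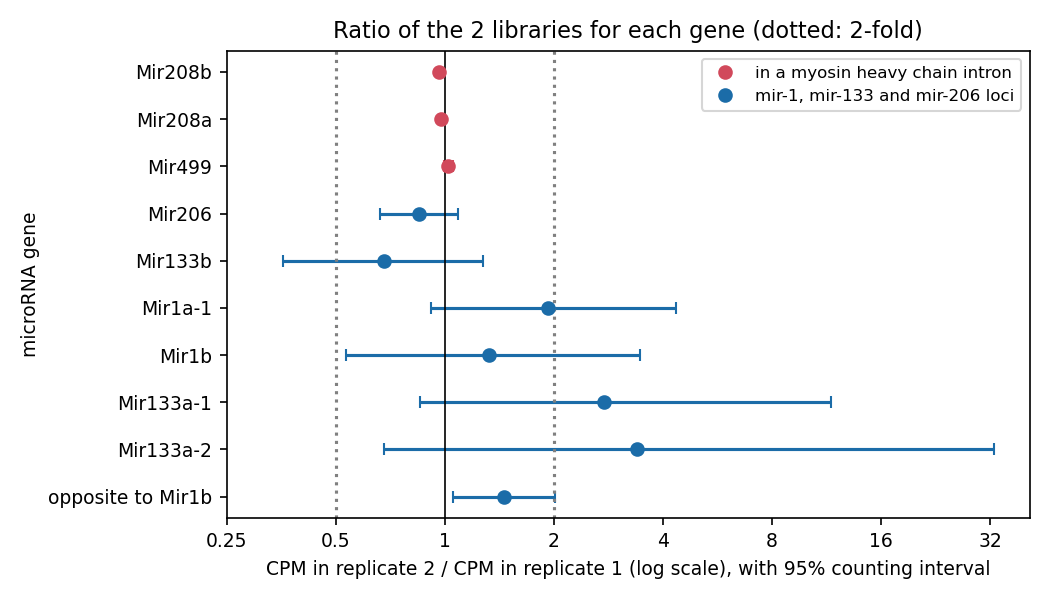
Ratio of CPM in replicate 2 to CPM in replicate 1 for the 9 genes and the reads opposite to Mir1b on a log axis, with exact 95% counting intervals and 2-fold ratios dotted. The myosin-intron genes lie at 0.964 to 1.02, and the intervals of the mir-1 and mir-133a genes all include 1.

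A list of 8 other microRNAs, linked to muscle or lying within genes of the heart and its vessels, had 7 genes found by symbol, all at 10 CPM or more in both libraries. Mir490, in the gene of the cardiac muscarinic receptor Chrm2, stood at 59.4 and 60.4 CPM. Mir218-2 and Mir218-1, in Slit3 and Slit2, stood at 45.6 ± 2.96 and 18.5 ± 4.37 CPM (SD, n = 2 each). Mir486, in the ankyrin gene Ank1, stood at 53.5 ± 9.55 CPM (SD, n = 2). In both libraries Mir490, Mir486 and Mir218-2 lay below Mir499 and above Mir206, and Mir218-1 lay below Mir206. Mir218-1 and Mir218-2 have the same product miR-218-5p, so reads of it fit both places. Mir378a, the eighth of the list, had no row of its own. The smooth muscle Mir143 lay above Mir208b, at 88442 ± 1103 CPM, and its neighbour Mir145a at 1204 ± 105 CPM (SD, n = 2 each). The last of the 7 was the endothelial Mir126a, already given as the gene next above Mir208b.

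The heart muscle markers fixed as a list, Mir208a, Mir208b and Mir499, are themselves among the 9 genes, so their levels are no separate check of the labelled tissue. The mir-1 and mir-133a genes were not on that list. Of 6 genes fixed as neural markers 5 were found by symbol, 3 of them at 0, with summed levels of 2.01 and 0.947 CPM. The products miR-9 and miR-124 are each known to come from several genes, so reads that fit several places are missing from these levels, and a 0 does not show absence. The erythroid genes Mir451a and Mir144 summed to 926 and 1811 CPM in replicates 1 and 2. They went opposite ways, Mir451a at 770 and 1671 CPM and Mir144 at 156 and 140 CPM. The liver gene Mir122 stood at 181 and 32.4 CPM. Mir451a and Mir122 were among the 3 genes that passed the exact binomial test with an adjusted p of 0.05 and a 2-fold ratio. The part of these erythroid and liver genes in the replicate ratios of the 9 genes was not tested.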

How the data were processed

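Raw counts of reads per microRNA gene were deposited by the authors, 1 table per library. They refer to assembly mm10 and annotation M4, per the descriptions deposited beside them. For the aligner and the counter, a name is not given in the sources used here. Columns carry no names: the column without strand, the sense and the opposite-strand column were told apart by their values. Of the reads, 4 rows that name no gene (several places, unmapped, outside genes, ambiguous) held 51.5% and 50.2%, and stayed out of library sizes.

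Symbols and coordinates were taken from GENCODE M21, which uses GRCm38 (1894 of 1973 identifiers matched). Sequences were taken from RefSeq (GRCm38.p6) with chromosome 18, where Mir1b and Mir133a-1 lie, left out. Entries for 6 of the 9 genes were then found. The hairpin coordinates of 5 genes were the same in both. Shared runs were sought in the M21 transcripts on both strands. No genome sequence was used.

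CPM was computed over all sense gene counts, with SD over n = 2. Intervals are exact (Clopper-Pearson, 95%), and a count of 0 was given a limit of 3 counts. The design has 1 group, so edgeR's quasi-likelihood test was not used. The exact binomial test was tested on simulated data. These varied by counting error alone, which the test itself assumes, so they cannot show how it behaves where libraries vary further. Named genes were the 9, Mir133c, their neighbours in rank (1 above and 1 below Mir208b, Mir208a, Mir499 and Mir206), 8 other muscle-linked genes and markers. The members and lists were chosen with earlier results of these data known. Alternatives changed the strand column, denominator, scaling, filter and test, and left out each replicate. Software was Python 3.11.15, scipy 1.17.1, pandas 2.3.3, matplotlib 3.10.9, R 4.3.3, edgeR 4.0.16 and DESeq2 1.42.0 (size factors).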

Additional observations from a re-analysis of the deposited data

Results flagged for a closer look

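Reads on the strand opposite to Mir1b, 63 in replicate 1 and 108 in replicate 2, lie outside the sense counts and exceed the 3 counts that a count of 0 allows.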

How the results depend on the processing

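Ratios among Mir208b, Mir208a, Mir499, Mir206 and Mir133b were the same with both strands counted, since none had opposite-strand reads. Without one replicate they ranged from 5.12 to 5.19 (Mir208b to Mir208a), 23.1 to 24.5 (Mir208b to Mir499), 4.52 to 4.73 (Mir208a to Mir499) and 5.20 to 6.50 (Mir206 to Mir133b). Per base of the hairpin, an alternative chosen after seeing the data, they were 5.55, 24.4, 4.40 and 9.54. The ratio of the myosin-intron sum to the mir-1, mir-133 and mir-206 sum ranged from 1557 to 1583 without one replicate. It was 1593 per base, 1099 with both strands counted and 1101 with the reads opposite to Mir1b, which add to the second sum. The share of the 9 genes ranged from 6.20% to 6.40% without one replicate, and was 6.02% of counts on both strands and 3.09% of all reads, which are larger denominators. TMM and DESeq2 size factors moved none of the 9 levels beyond 1 SD. With all reads as the denominator 7 of the 9 levels moved, and with both strands as the denominator 3. Without the most abundant gene 4 moved, and with the column without regard to strand 4 levels and 5 ranks. In that column Mir1b went from 2.33 to 18.7 CPM and from rank 365 to 266. Between the libraries, 3 genes passed with TMM, 4 among genes with at least 10 counts and 2 by the edgeR exact test, and 0 of the 9 in each. The dispersion of the edgeR test came from the same 2 libraries, so its calls do not back the others. With no minimum fold 119 passed, 2 of the 9 among them. No paired analysis was possible because there is 1 group. Counts of 2 to 25 per library leave the intervals of the mir-1 and mir-133a genes wide.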
